A study of Mus musculus with 2 samples.

Results

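The cortical hem is the signalling centre at the dorsal midline of the telencephalon, and hem-like progenitors were looked for in the scRNAseq dataset of septal explants. They were chosen by the UMIs (unique transcript molecules counted per cell barcode) of 18 genes. Cells with mitochondrial transcripts below 4% of their UMIs were kept, and among these, cells with more UMIs of 7 apical progenitor (AP) genes (*Sox2*, *Hes1*, *Hes5*, *Vim*, *Nes*, *Fabp7* and *Slc1a3*) than of 6 neuronal genes (*Tubb3*, *Stmn2*, *Dcx*, *Elavl3*, *Gap43* and *Mapt*) are called A>N cells. A hem-like cell was an A>N cell with at least 2 UMIs of *Wnt3a*, *Wnt2b* and *Rspo2* in sum and at most 2 UMIs of *Fgf8* and *Fgf17*, the ligands that mark the septal signalling centre. The rule found 81 cells, among 3807 A>N cells, 5827 barcodes of the septal library and 20110 barcodes of both libraries. They made up 2.13% of A>N cells (exact Clopper-Pearson 95% interval 1.69 to 2.64%), and the other 3726 A>N cells were the comparison.

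The septal explants were pooled in 1 library from 8 E11.5 *PGKCre;Rosa26YFP* and 4 E12.5 *Dbx1Cre;Rosa26tdTomato* embryos. In the former the *PGK* promoter drives Cre in all cells, so that YFP is switched on throughout, and in the latter tdTomato marks only the lineage of cells that expressed *Dbx1*. The labels give the strain as C57BL/6J and the genotype of the sample as wild-type, although both lines carry a Cre and a reporter allele. The second library holds the telencephalic vesicle of 3 WT embryos labelled E12 (E11.5 to E12 in the methods of the study), without a Cre or reporter allele named in the labels. Neither library has a replicate, and the labels tie no cell to an embryo, so that no test was possible and all intervals below cover counting error only. The septal library held 83103280 UMIs with a median of 12722 per barcode, and the vesicle library 194821794 UMIs with a median of 8503. The libraries shared 1 barcode, which was not a hem-like cell. Depth was close in the cells compared, with a median of 12758 UMIs in hem-like cells (4855 to 42127) and 14019 in the other A>N cells. No hem-like cell was among the 53 septal barcodes that Scrublet, a doublet caller, marked. These were 0.910% of the barcodes, against 4.66% expected at 0.8% per 1000 barcodes, so that unmarked doublets may remain among the hem-like cells.

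The hem lies between the cortical neuroepithelium and the choroid plexus and secretes Wnt and BMP ligands. Wnt ligands are loaded for secretion by Wntless, bind Frizzled and LRP receptors and stabilise β-catenin, and R-spondins raise the response by sparing the receptors from degradation. BMP ligands act through SMAD proteins and switch on *Id* and *Msx* genes. The hem patterns the adjacent hippocampal field and is a main source of Cajal-Retzius neurons, as is the septum.

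Of the 3 marker genes used to choose the cells, *Wnt3a* was present in 68 of the 81 cells, with a median of 2 and a highest value of 8 UMIs. *Rspo2*, an R-spondin, was present in 72 cells, with a median of 4 and a highest value of 17 UMIs. Both were found together in 59 cells, *Rspo2* alone in 13 and *Wnt3a* alone in 9. *Wnt2b* was found in none of them and had 2 UMIs in the other A>N cells, so that the name hem-like rested on *Wnt3a* and *Rspo2*. *Wnt3a* lies at chr11:59248033-59290752 and *Rspo2* at chr15:43020794-43170826 (GRCm38). The marker sum had a median of 7 and a highest value of 21, and 11 cells stood at the lower limit of 2. Just outside it, 35 A>N cells with low *Fgf8* and *Fgf17* had a sum of 1, and 2504 had a sum of 0. Among A>N cells under the same limit on *Fgf8* and *Fgf17*, at least 2 *Wnt3a* UMIs were found in 50 of the hem-like cells, and 82.0% of these held *Rspo2*, at 328 CPM (UMIs of the gene per 1000000 UMIs of the summed cells) against 5.62 CPM in the remaining A>N cells. At least 2 *Rspo2* UMIs were found in 67, of which 80.6% held *Wnt3a*, at 146 against 2.60 CPM. Both genes were used by the rule, so that these values describe the choice.

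For every other gene, the UMIs were summed over the 81 cells and over the other A>N cells, and the ratio of both CPM is given with its exact 95% counting interval. A gene counted as higher when the ratio was at least 2 and as lower when it was at most 0.5, in both cases with an interval that did not include 1. Among 12408 genes with at least 50 UMIs, 787 were higher (6.34%) and 350 were lower (2.82%), and the median ratio was 1.05. The counts of higher and lower genes in each septal list below are to be read beside these shares of 6.34% and 2.82%. The cells were chosen within this contrast, so that these values describe them and support nothing. Of the higher genes, 151 passed a ratio of 5 and 48 passed a ratio of 10. Only 122 of the 787 were found in at least 40 of the 81 cells, and 214 were found in at most 9. When the cell with the most UMIs of each gene was left out, 524 genes were still higher and had at least 50 UMIs.

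**Figure D1:**
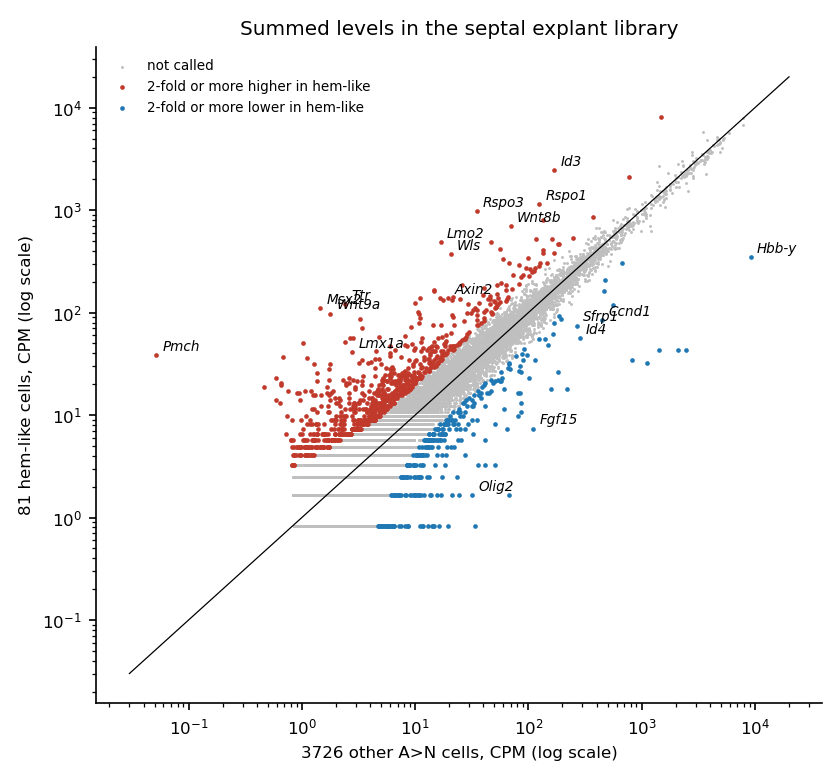
Summed level of each of 11996 genes in the 3726 other A>N cells (x axis, CPM, log scale) and in the 81 hem-like cells (y axis, CPM, log scale), with genes counted as higher or lower in colour and 412 genes at 0 in 1 group not drawn. *Rspo3* (981 against 35.0 CPM) and *Id3* (2454 against 169 CPM) lie far above the diagonal and *Ccnd1* (84.6 against 446 CPM) far below it.

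Wnt ligands and R-spondins stood out beside the markers. *Wnt8b*, a ligand of the medial pallium, was present in 80 of the 81 cells with a median of 10 and a highest value of 33 UMIs, and reached 700 CPM against 70.0 CPM in the other A>N cells (ratio 9.99, interval 9.27 to 10.8). *Rspo3* was present in 79 cells with a median of 12 and a highest value of 53 UMIs, and reached 981 against 35.0 CPM (28.0, 26.0 to 30.1). *Rspo1* was present in 73 cells with a median of 15 UMIs, and reached 1146 against 124 CPM (9.21, 8.69 to 9.76). Its spread was wide, as 8 cells had no *Rspo1* UMI and 1 cell had 105. *Wnt9a* was present in 53 cells with a median of 1 and a highest value of 6 UMIs, at 97.7 against 1.78 CPM (54.8, 41.8 to 72.1). It is the neighbour of *Wnt3a*, at chr11:59306928-59333552 on the opposite strand, with 16175 bases between both genes. *Wnt7b* (ratio 4.25), *Wnt4* (7.24) and *Wnt5a* (3.41) were also higher, *Wnt4* from only 9 UMIs in 7 cells. Not all ligands followed: *Wnt7a* was lower (0.165), and *Wnt5b* had a ratio of 0.924. *Wnt1*, a ligand of the midbrain and hindbrain roof plate, was not detected in the 81 cells. It had 110 UMIs in the other A>N cells without those rich in blood, vessel, macrophage or mesenchyme genes (upper bound of the ratio 1.55). A lower level of *Wnt1* was thus not resolved. In all, 5 of 8 Wnt ligands with enough UMIs were higher and 1 was lower, with a median ratio of 3.83 beside 1.05 over all genes. The leading genes lie apart from each other in GRCm38, *Wnt8b* at chr19:44493472-44514273, *Rspo3* at chr10:29452416-29535867 and *Rspo1* at chr4:124986430-125009099.

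*Wls*, a gene for the release of Wnt proteins, and some of the genes for the response to them were also higher. *Wls* encodes Wntless, and was present in 77 cells with a median of 5 UMIs, at 374 against 20.7 CPM (ratio 18.1, interval 16.2 to 20.2). Among genes that β-catenin signalling switches on and that feed back on it, *Axin2* had 139 against 19.6 CPM (7.1, 6.00 to 8.35), *Sp5* 167 against 14.7 CPM (11.4, 9.70 to 13.3) and *Nkd1* 185 against 52.8 CPM (3.5, 3.04 to 4.01). *Axin2* was found in 65 cells, *Sp5* in 72 and *Nkd1* in 70, with a median of 2 UMIs each. The secreted antagonists differed in direction. *Wif1* (7.49) and *Frzb* (3.99), which bind Wnt proteins, and *Dkk3* (20.9), a Dickkopf family protein, were higher, whereas *Sfrp1* was lower (0.278). Of 21 genes on this list, 7 were higher and 3 lower, with a median ratio of 0.971. The lower genes included *Ccnd1*, the cyclin D1 gene and a β-catenin target in other tissues, at 84.6 against 446 CPM (0.190, 0.155 to 0.230), and *Tcf7l2*, a DNA-binding partner of β-catenin (0.392). *Lef1*, another partner, had a ratio of 1.45.

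Among 13 Frizzled, LRP and related receptors, 3 were higher (*Fzd1*, 3.06; *Fzd7*, 4.2; *Fzd9*, 2.60) and 1 was lower (*Fzd8*, 0.0774), with a median ratio of 1.27. *Fzd8* had 2 UMIs in the 81 cells, at 1.64 against 21.2 CPM. Of the genes that link R-spondins to these receptors, *Znrf3*, the ligase that degrades them, was higher (2.29), and *Lgr4*, an R-spondin receptor, was lower with 2 UMIs (0.241). *Rnf43*, the other ligase, was not detected in the 81 cells.

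**Figure D2:**
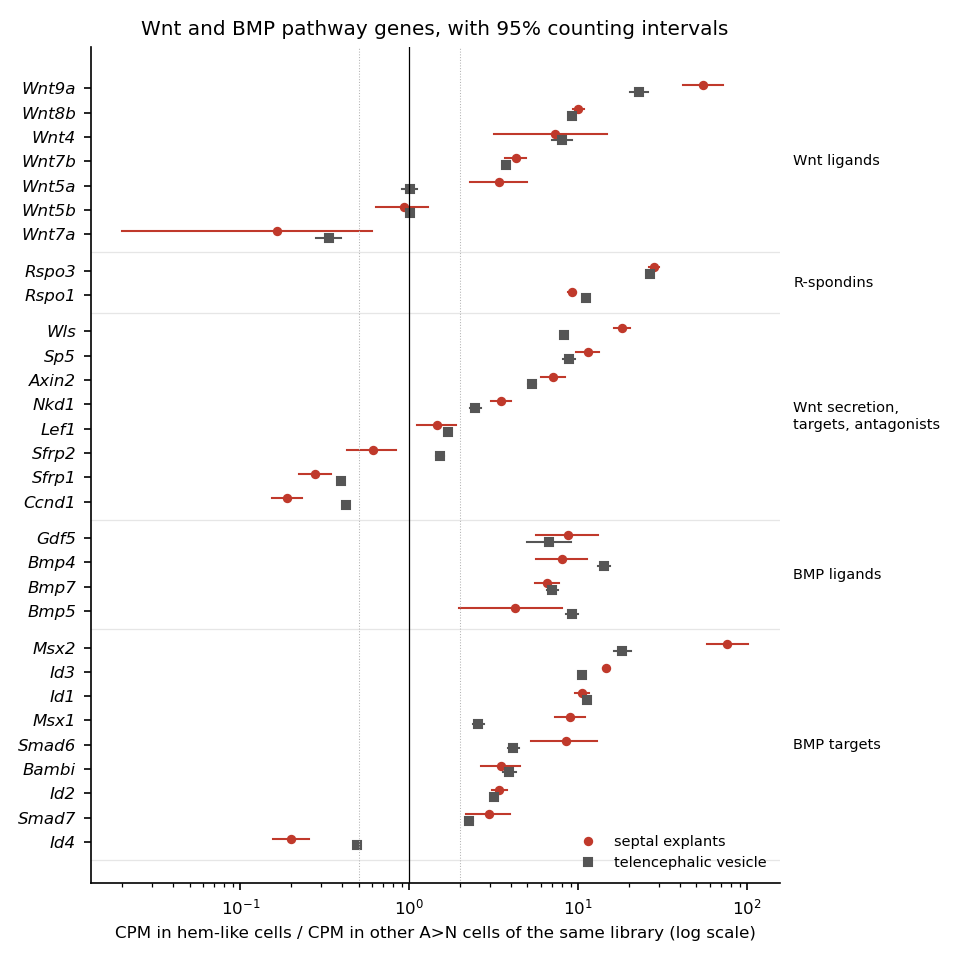
Ratio of the CPM in hem-like cells to that in the other A>N cells of the same library (x axis, log scale) for Wnt and BMP pathway genes, with 95% counting intervals, for septal explants and the telencephalic vesicle. In both libraries *Wnt9a*, *Rspo3* and *Wls* lie far above 1, and *Ccnd1* lies below it.

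Because *Sp5* is a direct target of β-catenin in many tissues, its promoter is shown. The 250 bases before its start, chr2:70474673-70474922 on the plus strand (RefSeq, GRCm38.p6), are given 5′ to 3′, with capitals for the letters CTTTGAT, a core that TCF/LEF proteins, the DNA-binding partners of β-catenin, recognise.
*Sp5*: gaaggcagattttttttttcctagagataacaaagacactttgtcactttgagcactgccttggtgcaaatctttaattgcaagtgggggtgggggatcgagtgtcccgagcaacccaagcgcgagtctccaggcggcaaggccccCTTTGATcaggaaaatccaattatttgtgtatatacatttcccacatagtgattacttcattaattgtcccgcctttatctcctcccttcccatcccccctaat
Both strands were searched, the reverse as ATCAAAG. This window held 1 match, whose first base lay 104 bases before the start. Among promoters of 250 bases before to 50 after a gene start, the motif was found in 19 of 577 higher genes with a RefSeq promoter (3.29%), 276 of 9388 genes compared (2.94%), 8 of 258 lower genes (3.1%) and 1225 of all 32851 promoters (3.73%). The share in higher genes was thus near that in all genes, and the match in *Sp5* is a description of its letters only.

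BMP ligands were found at lower UMI numbers. *Bmp7* was present in 63 cells with a median of 1 and a highest value of 9 UMIs, at 142 against 21.7 CPM (ratio 6.56, interval 5.57 to 7.70). *Bmp4* was present in 29 cells with at most 4 UMIs, at 32.9 against 4.08 CPM (8.04, 5.6 to 11.3). *Gdf5* (8.74, 15 cells) and *Bmp5* (4.2, 8 cells) were higher too, so that all 4 ligands with enough UMIs were higher. *Bmp6*, another ligand of the dorsal midline, had a single UMI, and *Gdf7*, a roof plate ligand, had none. Genes known to respond to BMP were abundant. *Id3*, an inhibitor of basic helix-loop-helix factors, was present in 77 cells with a median of 32 and a highest value of 115 UMIs, at 2454 against 169 CPM (14.5, 13.9 to 15.1). *Id1* had 491 against 46.6 CPM (10.5) and *Id2* 340 against 99.7 CPM (3.41, 3.08 to 3.77). The fourth gene of the family went the other way, as *Id4* had 56.7 against 283 CPM (0.20, 0.156 to 0.253). The inhibitory SMAD genes *Smad6* (8.41) and *Smad7* (2.97) and the decoy receptor *Bambi* (3.5) were higher. Of 16 receptors, antagonists and targets, 8 were higher and 1 was lower, with a median ratio of 2.23, while the receptor *Bmpr1a* had a ratio of 1.09.

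Homeobox genes of the dorsal midline were found at few UMIs per cell, so that a cell without a UMI may still express them. *Msx2*, a BMP target, was present in 47 cells with a median of 1 and a highest value of 11 UMIs, at 111 against 1.45 CPM (ratio 76.3, interval 57.7 to 101). *Msx1* was present in 26 cells, at most with 13 UMIs (ratio 8.96). *Lmx1a*, a roof plate and hem factor, was present in 28 cells with at most 6 UMIs, at 41.1 against 2.79 CPM (14.7, 10.5 to 20.4). Without 116 comparison cells rich in blood, vessel, macrophage or mesenchyme genes, the ratio was 23.8 (18.9 to 29.8) for *Msx1* and 52.7 (34.4 to 81.2) for *Lmx1a*. *Dmrt3*, a medial pallial factor, was found in 68 cells (8.29), and *Dmrta2* (2.31), *Otx1* (2.18), *Zic2* (2.04) and *Pax3* (6.51) were also higher. *Zic1*, which marks the wider dorsal midline and septum, was present in 80 cells at 494 against 354 CPM (1.40). Of 16 genes on the roof plate and midline list, 8 were higher and none was lower, with a median ratio of 1.97.

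Among pallial factors, *Emx1*, a dorsal telencephalic gene, was present in 65 cells at 226 against 101 CPM (ratio 2.23, interval 1.97 to 2.52), and *Emx2*, a dorsal gene also needed for the hippocampal field, had 269 against 151 CPM (1.79). *Nfia* (2.62) and *Lhx9* (2.38) were higher, whereas *Lhx2*, the selector of cortex over hem, had 214 against 261 CPM (0.819) and *Pax6* had 113 against 164 CPM (0.686). In all, 3 of 15 pallial factors were higher and 1 was lower, with a median ratio of 1.46. Subpallial factors were mostly low. Of 12 genes, 7 were lower and 1 was higher, with a median ratio of 0.170, and *Olig2* (0.0518), *Gsx2* (0.0678) and *Nkx2-1* (0.162) were among the lower. *Nkx2-1* had 10 UMIs in 4 cells, 7 of them in a single cell. The higher gene, *Isl1*, had 34 UMIs in 3 cells, of which 25 were in 1 cell.

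Other genes of the neighbouring septal FGF domain are bound to the rule, which removed cells rich in *Fgf8* and *Fgf17* from the hem-like cells and kept 1187 of them in the comparison. *Fgf15* had 9 UMIs, at 7.39 against 110 CPM (ratio 0.0669, interval 0.0306 to 0.127), *Fgf18* had 3 (0.196), and *Fgf3* had none, at least 2.09-fold lower when 3 UMIs are taken as the floor. Against 997 other A>N cells that were taken as dorsal by at least 2 *Emx1* UMIs, with few UMIs of *Fgf8*, *Fgf17* and *Nkx2-1* (*Emx1* cells), the ratio was 0.384 (0.174 to 0.738) for *Fgf15*, whereas *Fgf18* and *Fgf3* had fewer than 50 UMIs in that comparison and were not counted. Genes that respond to FGF had ratios of 1.44 for *Spry1*, 1.27 for *Dusp6* and 1.04 for *Etv4*, and of 3.20, 1.69 and 1.83 against *Emx1* cells. *Dbx1*, which marks septal, antihem and ventral pallial progenitors, was not detected in the 81 cells against 394 UMIs in the others, at least 2.77-fold lower by the same floor, but not resolved against *Emx1* cells (upper bound 2.02). *Pcdh8* had 1 UMI against 493, so that the 81 cells could not be divided by it. Hedgehog genes held 1 higher (*Cdon*, a co-receptor, 3.17) and 1 lower gene (*Ptch1*, a receptor and target, 0.442) of 7.

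Of the 20 higher genes with the largest lower bound of the ratio, several belong to none of these pathways. *Lmo2*, an adaptor of transcription factor complexes known from blood and vessels, was present in 74 cells with a median of 6 and a highest value of 30 UMIs, at 488 against 16.9 CPM (28.9, 26.1 to 32.1). The vessel genes *Cldn5* and *Cdh5* were at 0 UMIs in the 81 cells, while *Kdr* had 6 UMIs and *Pecam1* 11. *Lrp1b*, a large lipoprotein receptor, was present in 50 cells (26.2, 20.5 to 33.5), *Lrrtm3*, a synaptic adhesion gene, in 31 (49.9, 34.3 to 72.5) and *Fam163a* in 30 (54.8, 34.9 to 86.3). *Sertm1* was found in 40 cells (20.1) and *Pcp4l1* in 22 (32.6). *Sgk1*, a kinase (24.4), *Trpm3*, a cation channel (30.0), *Pygl*, the liver form of glycogen phosphorylase (39.1), and *Galnt14*, a glycosyltransferase (40.4), were each found in fewer than 40 of the cells. Some abundant genes, named after their values were seen, were found in nearly every hem-like cell and had a higher summed level. *Nnat*, an imprinted gene of neural tissue, was present in all 81 cells at 8103 against 1492.5 CPM (5.43). *Ezr*, which links membrane and actin, was present in 79 cells and had 806 against 134 CPM (6.03), and *Tpbg*, a cell surface antagonist of Wnt signalling, was present in 79 and had 420 against 56.6 CPM (7.42).

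The gene with the largest ratio, *Pmch* (744), a hypothalamic neuropeptide gene, had all of its 47 UMIs in 1 cell. *Ttr*, the transthyretin gene of the choroid plexus, had 148 UMIs in 4 cells, with 78, 59, 10 and 1 UMIs, and a ratio of 50.9 that fell to 24.3 without the highest cell. The cell with 59 *Ttr* UMIs was the one with *Pmch*. Most of the 81 cells thus had no *Ttr*. Other genes of the choroid plexus or its ciliated epithelium were spread more widely. *Folr1*, a folate receptor, was present in 36 cells with at most 6 UMIs, at 56.7 against 2.67 CPM (21.3, 15.8 to 28.4). *Foxj1*, the master gene of motile cilia, was present in 25 cells (6.35), as was the chloride channel gene *Clic6* (7.91), and *Calml4* in 12 (17.3). *Kcne2*, *Kl* and *Prlr*, further genes of the mature plexus, were at 0. Of 6 choroid plexus genes with enough UMIs, 5 were higher and none was lower, with a median ratio of 12.6. *Ccno*, a gene for the amplification of centrioles in multiciliated cells, had 63 UMIs in 10 cells (21.5). Its level of 51.7 CPM was not above the 62.9 CPM of the 1842 septal cells with no excess of AP over neuronal UMIs, where 131 cells held it and *Foxj1* was at 23.7 CPM. In these 10 cells, picked by *Ccno* after its values were seen, *Cfap126* had 286 CPM against 7.28 CPM in the other 71, *Dynlrb2* 185 against 4.55 CPM and *Foxj1* 211 against 19.1 CPM. The UMIs of *Cfap126* and *Dynlrb2* each lay in 3 of the 10 cells, and those of *Foxj1* in 7. All 3 are genes of motile cilia, and *Rspo3* was found at 1466 against 928 CPM.

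**Figure D3:**
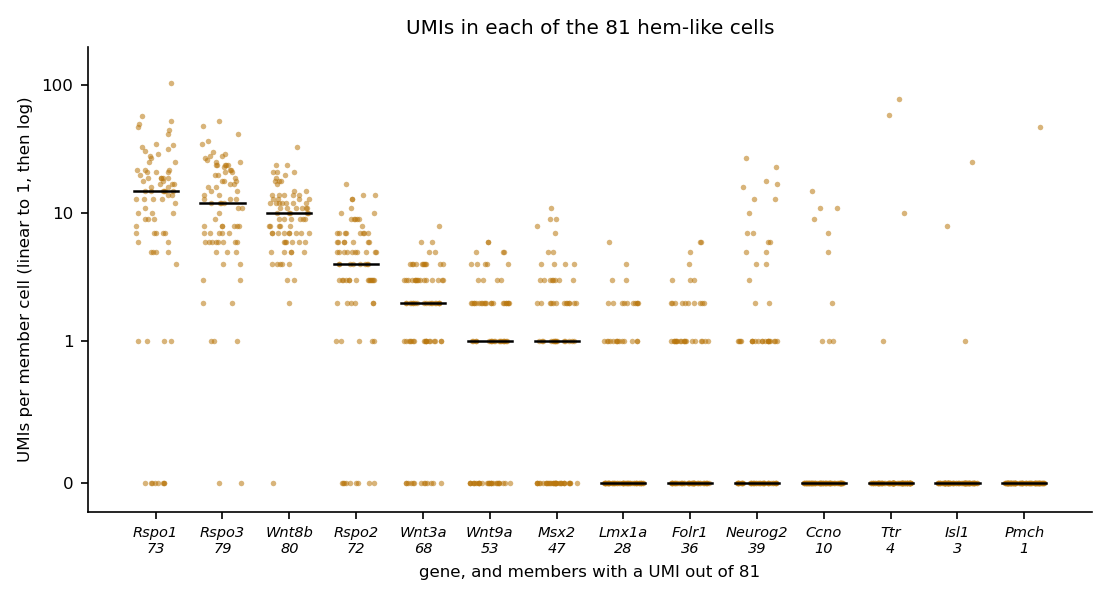
UMIs of 14 genes (x axis, with the number of cells that hold a UMI) in each of the 81 hem-like cells (points; y axis linear to 1, then log), with black lines at the medians. *Wnt8b* and *Rspo3* were held by 80 and 79 cells, whereas the UMIs of *Ttr* lay in 4 cells, those of *Isl1* in 3 and those of *Pmch* in 1.

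The 20 lower genes with the smallest upper bound were of 3 kinds. The first were globin and red cell genes such as *Hba-x* (0.0176), *Hbb-y* (0.0383) and *Alas2* (0.0244). The summed level of 9 erythroid genes was 566 CPM in hem-like cells against 17356 CPM in the others, with *Hbb-y* as the most abundant. The comparison held 116 cells rich in blood, vessel, macrophage or mesenchyme genes, 56 of them with at least 1% globin, and no hem-like cell met these limits. Without the 116 cells, *Hbb-y* had a ratio of 1.01 and *Alas2* one of 1.11, while *Fgf15* was still lower (0.0644). *Hba-a1* and *Hba-a2*, and *Hbb-bt* and *Hbb-bs*, are near-identical copies whose split is uncertain. The second kind were *Fgf15*, *Olig2* and *Nkx2-3*, which are regional. The third were genes of other function, such as *Lmo1*, a relative of *Lmo2*, at 3.29 against 50.7 CPM (0.0647, 0.0176 to 0.166), *Sox1*, a neural progenitor factor, at 3.29 against 41.7 CPM (0.0788) and *Dlk1*, a Notch-related ligand, at 26.3 against 184 CPM (0.143). Against *Emx1* cells, *Dlk1* had 0.714 and *Olig2* 0.373, both with an interval that included 1, so that neither counted as lower there. *Lpar1*, a receptor for lysophosphatidic acid, was at 0 against 946 UMIs, at least 6.64-fold lower.

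Genes of the cell cycle had ratios under 1 throughout both lists against the other A>N cells. The summed level of 20 S phase genes was 2120 CPM against 3098.5 CPM (ratio 0.684, interval 0.658 to 0.711), with ratios of 0.386 to 0.857 for single genes. For 20 genes of G2 and mitosis it was 2848 against 3844 CPM (0.741, 0.716 to 0.766), with single ratios of 0.528 to 0.971. All 40 genes were under 1, but only 3 passed the limit of 0.5. *Top2a*, a topoisomerase of dividing cells, was found in 40 cells, and after every cell was thinned to 8000 UMIs it was found in 42.9% of hem-like and 66.1% of other cells (49.4% and 70.3% without thinning). Among cells with at least 3 YFP UMIs, the ratio was 0.677 for S phase and 0.75 for G2 and mitosis. Against *Emx1* cells, it was 0.653 and 0.715. Among D cyclins, *Ccnd2* had 287 against 499.7 CPM (0.575) and *Ccnd3* 134 against 149 CPM (0.901), beside the lower *Ccnd1*. The hem-like cells also had a lower median of neuronal and a higher median of AP gene UMIs than the others (4 and 58 against 7 and 43), genes that took part in the choice of A>N cells.

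Genes of neurogenesis differed between hem-like cells. *Neurog2*, a proneural gene of the pallium, was found in 39 cells, with at most 27 UMIs. In the 14 cells with at least 5 *Neurog2* UMIs, grouped after the values were seen, the Notch ligand *Dll1* had 199 CPM, against 38.9 CPM in 25 cells with 1 to 4 UMIs and 11.1 CPM in 42 without. *Hes6*, which promotes differentiation, had 758, 313 and 200.2 CPM in the same order, and *Gadd45g*, a gene of cell cycle exit, had 409, 134 and 44.5 CPM. *Top2a*, a gene of dividing cells, ran the same way, at 349, 206 and 145 CPM. *Rrm2*, another gene of dividing cells, did not, at 345, 238 and 371 CPM. Nor did *Cdkn1a*, at 11.3, 75.3 and 64.9 CPM, which was lowest in the cells with most *Neurog2*. *Rspo3* varied less, at 826, 960 and 1073 CPM. Markers of the Cajal-Retzius neurons that leave the hem were scarce, with 3 *Trp73* and 6 *Reln* UMIs in all. The rule kept only A>N cells, so that neurons were left out by the choice. In the 1842 septal cells with no excess of AP over neuronal UMIs, *Trp73* was at 30.7 CPM and *Reln* at 55.6 CPM. Of 12 Cajal-Retzius genes, 3 were higher (*Ebf2*, 2.85; *Cxcr4*, 2.37; *Cdkn1a*) and none was lower, with a median ratio of 1.25. Of 13 Notch pathway genes, *Notch2* (3.38), *Hey1* (3.72) and *Hey2* (3.75) were higher, the last from 6 UMIs, and none was lower. *Notch1*, the main receptor of APs, had 27.1 against 50.3 CPM (0.539).

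Levels changed with the marker sum. *Rspo3* had 27.4 CPM in A>N cells with a sum of 0, 123 CPM at a sum of 1, 265 CPM at 2, 824 CPM at 3 to 5 and 1232 CPM at 6 or more. *Msx2* had 0.816, 7.24, 25.2, 74.7 and 151 CPM in the same order, and *Lmo2* 17.6, 43.5, 259, 470 and 551 CPM. *Id4* had 345, 268, 126, 66.7 and 35.1 CPM. Each of these ran in 1 direction over the 5 groups, whose median depth lay between 12389 and 14274 UMIs. *Lmx1a* did not, with 2.70, 12.7, 0, 29.3 and 57.0 CPM, the 0 from 11 cells. The groups were formed by the values that chose the cells, so that this order is a description. The 9 cells with *Wnt3a* but no *Rspo2* UMI had 17.9 CPM of *Msx2*, against 140 CPM in the 59 cells with both markers. Their *Id1* was 77.4 against 580 CPM. None of these 9 cells held more than 1 *Msx2* UMI or more than 4 *Wnt3a* UMIs. Their marker sums were thus low, and *Msx2* was also low in the groups with low sums.

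**Figure D4:**
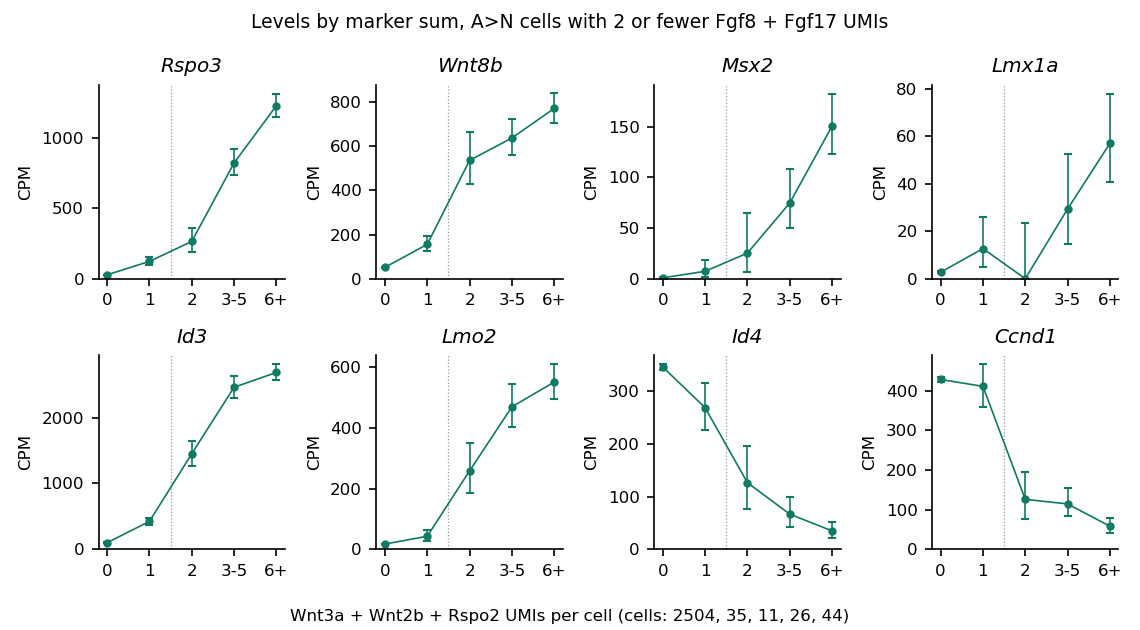
Summed level (y axes, CPM, from 0) of single genes in A>N cells with at most 2 *Fgf8* and *Fgf17* UMIs, by the UMIs of *Wnt3a*, *Wnt2b* and *Rspo2* per cell (x axes), with exact Poisson 95% intervals. *Rspo3* goes from 27.4 CPM at a sum of 0 to 1232 CPM at 6 or more, and *Id4* from 345 to 35.1 CPM.

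YFP is carried by 1 of the 2 pools of embryos, and a cell with 3 or more of its UMIs was assigned to E11.5. Such cells were 67 of the 81 hem-like cells (82.7%, interval 72.7 to 90.2%) and 58.1% of the other A>N cells (56.5 to 59.7%). Hem-like cells were 3.00% of A>N cells with at least 3 YFP UMIs (67 of 2233, 2.33 to 3.79%) and 0.710% of those with none (8 of 1127, 0.307 to 1.39%). The median depth of these A>N cells was 14841 and 12943 UMIs. Age, genotype and dissection go together in this library and cannot be told apart. In the 8 hem-like cells without YFP, *Id3* was at 2472 CPM, against 2471 CPM in the 67 with it, whereas *Msx2* was at 23.7 (2 UMIs in 1 cell, 2.87 to 85.5) against 123 CPM and *Lmo2* at 213 (126 to 337) against 511 CPM. Of these 8 cells, 4 had a marker sum of 2, the group in which *Msx2* was at 25.2 CPM. tdTomato, the reporter of the *Dbx1* lineage, was found in 1 hem-like cell, with 6 UMIs (1.23%, interval 0.0313 to 6.69%). It was found in 240 of the other A>N cells (6.44%, 5.67 to 7.28%). Only the E12.5 embryos carry this reporter, and both shares include the cells assigned to E11.5. These were 82.7% of hem-like and 58.1% of other A>N cells, so that the 2 shares do not compare the *Dbx1* lineage between the groups. Transcripts of *Xist* without Y-linked genes were found in 51 hem-like cells and Y-linked genes without *Xist* in 17, so that embryos of both sexes gave such cells. Both were found in 2 hem-like cells and neither in 11.

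The limit on *Fgf8* and *Fgf17* left out 51 of the 132 A>N cells that met the marker limit. These cells held 3 or more *Fgf8* and *Fgf17* UMIs, with a median of 10, and 43 of them had *Rspo2* and 39 had *Wnt3a*. Hem genes were present in them too. *Wnt8b* had 602 CPM, against 700 CPM in hem-like cells, *Axin2* 122 against 139 CPM, *Rspo3* 542 against 981 CPM and *Id3* 1184 against 2454 CPM. *Bmp4* was at 68.1 CPM (52.3 to 87.1) against 32.9 CPM (23.5 to 44.7), and *Msx1* at 115 against 96.9 CPM. *Lmo2* was at 122 against 488 CPM. The hem-like cells are therefore the part of the marker-positive cells with few FGF ligand transcripts, and 46 of them had none.

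Other regional A>N cells differed from the hem-like cells in the share that held each gene. After thinning to 8000 UMIs, which left out 4 hem-like and 400 other A>N cells as too shallow, *Wnt8b* was found in 98.7% of hem-like cells, 21.4% of the others and 3.5% of 200 *Nkx2-1* cells (at least 2 UMIs of this subpallial gene and few of *Fgf8* and *Fgf17*), which should lack it. For *Rspo3* the shares were 94.8%, 11.1% and 1.0%. *Msx2* was found in 44.2% and 0.932% of hem-like and other cells, *Lmx1a* in 23.4% and 1.5% and *Folr1* in 31.2% and 1.5%. Without thinning, the shares of hem-like and other cells were 98.8% and 24.8% for *Wnt8b* and 97.5% and 15.5% for *Rspo3*. By summed level, *Rspo3* was at 53.2 CPM in *Emx1* cells, 49.0 CPM in 1187 *Fgf8* or *Fgf17* cells, 7.90 CPM in *Nkx2-1* cells and 111 CPM in 1842 cells with no excess of AP over neuronal UMIs, all far below the 981 CPM of hem-like cells. *Wnt8b* was at 99.8 CPM in *Emx1* cells, 108 CPM in *Fgf8* or *Fgf17* cells and 14.5 CPM in *Nkx2-1* cells. Since *Emx1* cells are themselves dorsal, the named genes were also set against them alone. *Rspo3* (18.4), *Wnt8b* (7.01), *Axin2* (6.41) and *Id3* (18.7) still counted as higher and *Ccnd1* (0.274) and *Id4* (0.147) as lower. *Otx1* (1.13), *Dmrta2* (1.32), *Lhx9* (1.43), *Fzd9* (1.33), *Cdon* (1.74) and *Ebf2* (1.75) no longer counted as higher, nor *Tcf7l2* (0.718) and *Ptch1* (1.49) as lower. Genes with fewer than 50 UMIs there were not counted, among them *Hey2*, *Lgr4*, *Bmp4*, *Bmp5*, *Wnt4*, *Pax3*, *Calml4*, *Fam163a*, *Pcp4l1*, *Slit3* and *Unc5c*. Some genes passed the limits here but not against all other A>N cells, with *Spry1* (3.20) and *Spry2* (2.75), inhibitors of FGF signalling, as higher and *Lhx2* (0.444), *Pax6* (0.441), *Ccnd2* (0.479) and *Notch1* (0.496) as lower. *Emx1* and *Nkx2-1* define these cells and were not compared. Genes of other cell types were also summed. Vessel genes had 14.8 CPM in hem-like cells against 9.78 CPM in the others, with *Pecam1* as the most abundant (11 UMIs), 6 UMIs of *Kdr*, and *Cldn5* and *Cdh5* at 0. Macrophage genes had 3.29 against 19.5 CPM, with *Csf1r* and *C1qa* at 0. Mesenchyme genes had 30.4 against 60.4 CPM, with *Foxc1* and *Twist1* at 0, and *Dcn*, a matrix gene, was higher (2.91, 23 cells). The comparison included the 116 non-neural cells, which were found by these lists, and without them the others had 7.52 CPM of vessel, 1.69 CPM of macrophage and 11.2 CPM of mesenchyme genes, so that all 3 sums were then larger in the hem-like cells. *Dcn* then had a ratio of 8.18 and *Kdr*, with 6 UMIs on each side, one of 45.3 (12.1 to 170). The part of these transcripts in the other results was not tested. Of 9 genes of stress during dissociation, 4 were higher (*Fos*, 2.05; *Junb*, 3.81; *Egr1*, 2.43; *Atf3*, 2.13), and their part in the other results was not tested. The heat shock gene *Hspa8*, the most abundant of them, had a ratio of 0.791.

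The same rule was applied to the telencephalic vesicle. It gave 1023 cells, 12% of 8526 A>N cells (interval 11.3 to 12.7%). Chemistry, processing and tissue differ between the libraries, so that only ratios within each are set side by side. *Rspo2* was found in 99.6% of these cells and *Wnt3a* in 41.2%. Their median depth was 15650 UMIs, against 10542 in the 7503 others. Scrublet marked 103 of them (10.1%) and 4.73% of the others. Without the marked cells, *Rspo3* had a ratio of 30.6, *Wnt8b* of 9.80, *Msx2* of 19.3, *Lmo2* of 6.42 and *Lmx1a* of 46.4. Among 16182 genes, 593 were higher (3.66%) and 772 were lower (4.77%), with a median ratio of 1.01. Of 12207 genes with enough UMIs in both libraries, 770 were higher in septal explants and 338 in the vesicle, and 254 were higher in both, 33% of the former and 75.1% of the latter. Lower genes were 348 and 347, with 114 shared (32.8 and 32.9%). Across 6517 genes, the log2 ratios had a Pearson correlation of 0.791 and a Spearman correlation of 0.623. The genes share libraries and cells, so that this is a description.

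Some signalling genes had similar ratios in both libraries. *Rspo3* had 28.0 in septal explants and 26.5 in the vesicle, *Wnt8b* 9.99 and 9.22, *Rspo1* 9.21 and 11.1, *Axin2* 7.1 and 5.31, *Bmp7* 6.56 and 7.02, *Id1* 10.5 and 11.2 and *Folr1* 21.3 and 19.1. Others had a larger ratio in the septal explants, such as *Msx2* (76.3 and 18.2, or 83.8 and 50.9 with blood, vessel, macrophage and mesenchyme cells left out of both comparisons), *Wnt9a* (54.8 and 22.8), *Lmo2* (28.9 and 6.32), *Wls* (18.1 and 8.24) and *Dkk3* (20.9 and 4.92). *Bmp4* had the reverse order, with 8.04 and 14.2 (10.6 and 26.7 without those cells). *Bmp6*, with a single UMI in the septal cells, was held by 804 of the 1023 vesicle cells (ratio 24.1), and all 7 BMP ligands with enough UMIs were higher there. For *Lmx1a* the ratios were 14.7 and 41.9, but 52.7 (34.4 to 81.2) and 60.6 (54.2 to 67.9) without those cells (116 and 1673), so that its order was within counting error. *Cdh11*, a cadherin, was higher in septal explants (6.00) but had a ratio of 1.03 in the vesicle, and *Wnt5a* had 3.41 and 1.0. Cell cycle genes were nearer to 1 in the vesicle, with 0.916 for S phase and 0.983 for G2 and mitosis, and *Ccnd2* had 1.74 there against 0.575 in septal explants. *Ttr* was found in 105 of the 1023 vesicle cells (10.3%). The differences between the libraries were not tested.

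**Figure D5:**
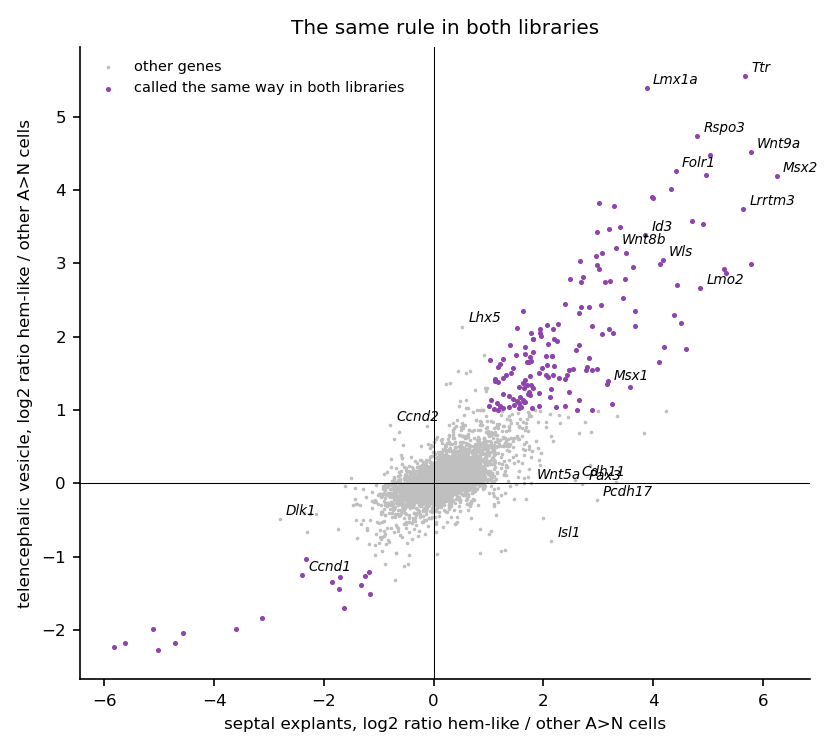
Log2 ratio of hem-like to other A>N cells in septal explants (x axis) and in the telencephalic vesicle (y axis) for 6517 genes with enough UMIs in both libraries and at least 20 UMIs in the septal hem-like cells. *Rspo3* and *Wnt8b* lie near equal ratios (28.0 and 26.5, 9.99 and 9.22), whereas *Lmo2* lies below them (28.9 and 6.32). *Lmx1a* lies above (14.7 and 41.9), a gap that depends on the non-neural cells among the others.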

How the data were processed

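The authors deposited raw counts of UMIs per gene and barcode for 2 droplet (10x Genomics) libraries. Septal explants were sequenced with the v2 kit and counted against mm10, to which both reporter sequences had been added, by Cell Ranger 2.1.1 at its default settings. For the telencephalic vesicle, the submitters' processing notes name Cell Ranger 7.1.0 and mm10; whether intronic reads were counted is not given in the sources used here. CPM and ratios were computed here from summed counts. No replicate exists, so no test was run; sums have exact Poisson, ratios exact conditional binomial and shares Clopper-Pearson intervals of 95%, for counting error only. Where a fold is given for a gene at 0, a floor of 3 counts was used (2.46 CPM in hem-like cells), whereas the ratio of *Ppbp* is given without it. Genes under 50 UMIs over both groups and the 18 genes of the rule were left out. Only cells below 4% mitochondrial UMIs were kept; doublets were marked with Scrublet (scanpy 1.11.5), kept, and left out in an alternative.

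Members, the 29 gene lists and all limits were chosen with earlier results of these data known. Genes named were list members and the 20 with the largest lower bound above and the 20 with the smallest upper bound below 1; exceptions are stated, and some genes are not reported here. Alternatives were other gene filters, folds, depths, comparison cells, reporter classes, sexes, and leaving out doublets or the highest cell of each gene. Coordinates are those of GENCODE vM21 (GRCm38), and promoters those of RefSeq. Scripts were tested on simulated data and run with scipy 1.17.1, numpy 2.4.6, anndata 0.12.19 and pandas 2.3.3 under Python 3.11.15, with matplotlib 3.10.9 for plots.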

Additional observations from a re-analysis of the deposited data

Results flagged for a closer look

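A few genes were higher in the hem-like cells of 1 library and lower in those of the other, each with a counting interval that did not include 1, and this difference was not tested. The septal and vesicle comparisons held 116 and 1673 cells rich in blood, vessel, macrophage or mesenchyme genes. The part of these cells in the ratios below was not tested either. In septal explants and the telencephalic vesicle the ratios were 2.94 and 0.190 for *Emp1*, 2.33 and 0.363 for *Igf2*, 4.52 and 0.393 for *Bmper*, 2.19 and 0.394 for *Mro* and 4.05 and 0.493 for *Plce1*. Their UMIs in the 81 septal cells numbered 6, 9, 6, 16 and 14. In the opposite direction, *Ppbp* had 0 and 2.33 and *Dapk2* had 0.299 and 3.23, from 0 and 4 UMIs. The 0 of *Ppbp* is given without the floor of 3 counts. Its interval of 0 to 0.636 extends past the limit of 0.5, so that a 2-fold lower level was not resolved.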

How the results depend on the processing

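The count of 787 higher genes lay between 670 and 877 under 11 alternatives, among them *Emx1* cells as the comparison (699), only cells with at least 3 YFP UMIs (740), a marker sum of at least 3 (816) and no doublets (794). It was 515 with a minimum of 200 UMIs per gene, 1354 at a fold of 1.5, 524 without the highest cell of each gene, 465 in cells with Y-linked but no *Xist* UMIs and 348 in cells without YFP. The 350 lower genes became 619 at a fold of 1.5, 216 in the Y-linked class and 125 without YFP; fewer cells entered these classes. The share of hem-like cells was 3.00% with at least 3 YFP UMIs and 0.710% without YFP. Of 599 ratios of the 40 genes named by rank under 15 settings, 451 stayed within their interval, 135 moved out of it and 13 changed direction. *Pmch* was at 0 with YFP, with *Xist* or without its 1 cell, and *Pygl*, *Galnt14*, *Ccdc3* and *Ccno* were at 0 without YFP. Without blood, vessel, macrophage and mesenchyme cells, ratios were 1.0 for *Hba-a1*, 1.19 for *Hbb-bh1*, 1.01 for *Hbb-y*, 1.17 for *Hbb-bt*, 1.40 for *Hbb-bs* and 1.11 for *Alas2*. The comparisons without the non-neural cells, also in the vesicle, and without the highest cell, and the classes by sex, were chosen after seeing the data. With 81 cells, a gene at 0 is resolved only to 2.46 CPM. No paired analysis was possible because each group is 1 library.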

Other observations

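Genes of adhesion and axon guidance differed one by one in the hem-like septal cells. For the lists of this section, the share over all 12408 genes was 6.34% higher and 2.82% lower. Of 13 cadherins and protocadherins, 3 were higher (*Cdh11*, 6.00; *Pcdh17*, 7.86; *Pcdh7*, 2.36) and 3 were lower (*Pcdh9*, *Pcdh10* and *Pcdh19*), with a median ratio of 0.753, while the abundant *Cdh2* had a ratio of 1.34. Of 26 guidance and chemokine genes, 8 were higher and 4 lower, with a median of 1.06. *Slit3*, a repellent ligand, had 14 against 0.969 CPM (14.4, interval 7.85 to 25.2), and the netrin receptors *Unc5c* (10.6) and *Dcc* (4.39) were higher, from 19 and 28 UMIs. *Sema5a* was lower, with 1 UMI (0.114). In the vesicle the ratios were 5.16 for *Slit3*, 3.32 for *Unc5c* and 1.57 for *Dcc*.

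Of 10 retinoid genes, 2 were higher and 3 lower, with a median ratio of 0.528. *Crabp2*, a retinoic acid carrier, was present in 79 of the 81 cells at 404 against 136 CPM (2.98, 2.71 to 3.26), and its relative *Crabp1* had 2 UMIs (0.158, and 0.578 with an interval of 0.0693 to 2.12 without the 116 non-neural comparison cells). Of 9 genes of the Lin28, Hmga and Igf2bp families, which are high in early progenitors, *Hmga1* was lower (0.320, and 0.479 with an interval that included 1 against *Emx1* cells) and none was higher, with a median ratio of 0.593. *Ina*, a neurofilament gene, was the only one higher of 7 genes of later neurons (3.33), with 15 of its 33 UMIs in 1 cell.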
